A study of Mus musculus with 16 samples.

Results

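The genes described here encode the enzymes that make wax esters and triglycerides in sebaceous glands, and a receptor that controls sebum output. They are the fatty acyl-CoA reductases Far1 and Far2, the wax alcohol acyltransferases Awat1 and Awat2, the diacylglycerol acyltransferases Dgat1 and Dgat2, and the melanocortin receptor Mc5r. Members were chosen by gene symbol, and all 7 were found among the 26357 genes of the count table and among the 14671 genes that passed the low-count filter. RNA was sequenced from 16 mouse libraries in 4 groups of 4: IL-23 with oral dosing, vehicle with oral dosing, IL-23 with intraperitoneal dosing and vehicle with intraperitoneal dosing. IL-23 is a cytokine that sustains IL-17-producing lymphocytes, and the study's title places it in a mouse model of psoriasis-like skin inflammation. Every mouse, in the IL-23 groups too, also received a dosing vehicle holding 0 mpk of compound by the route named. Strain, genotype, age, sex, tissue, IL-23 dose and harvest time are not given in the labels. Nothing in the labels says that libraries of a group came from separate animals, so the spread behind each p-value may be technical. Library totals ran from 6381990 to 10078531 counts with IL-23 and from 7159325 to 14432930 counts with vehicle. Levels are CPM, counts scaled to a common library size and corrected for library composition with TMM factors. A gene is said to have risen or fallen where edgeR's quasi-likelihood test gave a Benjamini-Hochberg adjusted p under 0.05 over all genes tested.

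Sebum of mice holds wax esters, in which a fatty acid is joined to a fatty alcohol, and triglycerides. Fatty alcohols come from reduction of fatty acyl-CoA by FAR1 and FAR2, and also feed the synthesis of ether lipids in peroxisomes. AWAT1 and AWAT2 join a fatty alcohol to an acyl chain, whereas DGAT1 and DGAT2 add the last acyl chain to diacylglycerol to give triglyceride. MC5R is a receptor for melanocyte-stimulating hormone and related peptides, and mice that lack it produce less sebum and shed water from their coat poorly.

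Promoters are shown for the reductases, which make fatty alcohols, and the wax alcohol acyltransferases, which use them, so that the members of each pair can be compared. Those of Dgat1, Dgat2 and Mc5r are not shown here. Each runs 5′ to 3′ on the gene's strand from 250 bases before to 50 bases after a start site (RefSeq, GRCm38.p6). The start sites used for Far1 and Awat2 lie inside the gene spans given with these genes below, so they are not the outermost starts. Capitals mark matches, on either strand, to the motifs searched, so a GC box on the other strand reads CCGCCC and a CCAAT box reads ATTGG.
Far2, chr6:148047166-148047465, plus strand: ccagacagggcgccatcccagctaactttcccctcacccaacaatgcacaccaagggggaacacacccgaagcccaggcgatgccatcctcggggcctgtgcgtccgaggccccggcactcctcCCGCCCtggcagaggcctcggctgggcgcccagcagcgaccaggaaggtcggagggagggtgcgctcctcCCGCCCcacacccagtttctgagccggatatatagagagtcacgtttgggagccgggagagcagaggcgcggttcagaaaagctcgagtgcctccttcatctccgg
Far1, chr7:113513584-113513883, plus strand: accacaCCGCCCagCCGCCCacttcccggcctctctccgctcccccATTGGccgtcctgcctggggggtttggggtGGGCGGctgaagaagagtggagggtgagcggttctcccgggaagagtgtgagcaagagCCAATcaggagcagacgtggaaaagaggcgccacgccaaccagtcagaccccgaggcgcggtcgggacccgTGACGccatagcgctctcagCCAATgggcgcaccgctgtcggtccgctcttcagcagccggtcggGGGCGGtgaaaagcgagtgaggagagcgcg
Awat2, transcript Awat2-202, chrX:100442668-100442967, minus strand: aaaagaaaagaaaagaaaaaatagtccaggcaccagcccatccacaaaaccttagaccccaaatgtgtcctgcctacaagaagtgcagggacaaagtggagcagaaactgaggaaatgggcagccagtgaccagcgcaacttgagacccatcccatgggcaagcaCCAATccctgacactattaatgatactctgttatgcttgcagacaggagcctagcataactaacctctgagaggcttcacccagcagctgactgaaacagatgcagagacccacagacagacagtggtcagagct
Awat2, transcript Awat2-201, chrX:100412538-100412837, minus strand: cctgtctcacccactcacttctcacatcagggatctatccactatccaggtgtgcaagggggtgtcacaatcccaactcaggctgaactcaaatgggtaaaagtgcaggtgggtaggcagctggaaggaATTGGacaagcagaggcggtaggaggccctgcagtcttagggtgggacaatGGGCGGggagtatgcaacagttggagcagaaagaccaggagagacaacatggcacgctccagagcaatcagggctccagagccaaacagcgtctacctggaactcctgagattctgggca
Awat1, chrX:100571997-100572296, plus strand: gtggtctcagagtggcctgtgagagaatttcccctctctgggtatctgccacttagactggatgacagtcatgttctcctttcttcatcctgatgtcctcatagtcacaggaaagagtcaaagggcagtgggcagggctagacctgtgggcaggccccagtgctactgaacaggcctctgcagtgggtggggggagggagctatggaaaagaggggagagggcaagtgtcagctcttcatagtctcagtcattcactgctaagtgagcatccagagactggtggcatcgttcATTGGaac

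The reductase promoters were G and C rich and the acyltransferase promoters were not. G and C made up 66.0% of the Far2 window and 67.7% of the Far1 window, which held 21 and 28 CpG pairs. The Awat2 windows had 49.0% and 55.0%, with 1 and 4 CpG pairs, and the Awat1 window had 53.7% with 1. The median of 32544 mouse promoter windows was 53.0% with 7 CpG pairs. The GC box (GGGCGG) occurs in 35.9% of those windows. It was found at -126 and -56 from the start site used for Far2, at -244, -236, -174 and 21 from that used for Far1, and at -70 in the Awat2-201 window. The CCAAT box (CCAAT) occurs in 37.4% of windows. It was found at -204, -116 and -25 in Far1, at -85 in the Awat2-202 window, at -121 in the Awat2-201 window and at 43 in Awat1, but not in the Far2 window. Far1 also held a cAMP response element half-site (TGACG, 20.9% of windows) at -45. No member window held the TATA box (TATAAA, 13.6%), the E-box (CACGTG, 7.17%), the sterol regulatory element (TCACNCCAC, 1.24%), the AP-1 site (TGANTCA, 7.79%) or the STAT site (TTCNNNGAA, 8.33%). These motifs did not overlap each other in the windows shown. A match is a run of letters and not a measured binding site.

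The members moved in 3 ways. Mc5r, Far2 and Awat2 fell at least 2-fold with IL-23 by both routes, Far1 and Dgat1 rose by both routes, and Awat1 and Dgat2 were not called by either. By these calls each enzyme pair was split, with 1 member called and the other uncalled or called the other way. The difference within a pair was not tested. In oral mice 5 of 7 members were called, 2 higher and 3 lower. Of all genes tested 63.3% were called, 29.2% higher and 34.0% lower. In intraperitoneal mice it was again 5 of 7, with the same genes in each direction. Of all genes tested 61.7% were called, 30.8% higher and 30.9% lower. These shares of called genes are near the background, so the count by itself sets the members apart from no other genes. Of all genes tested, 13.1% were called and at least 2-fold lower in oral mice and 11.6% in intraperitoneal mice. The median log2 fold change of the members was -0.03 in oral and -0.13 in intraperitoneal mice, and that of all genes tested was -0.06 and -0.02. In bulk RNA, fewer cells of a type and less RNA per cell cannot be told apart.

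**Figure D1:**
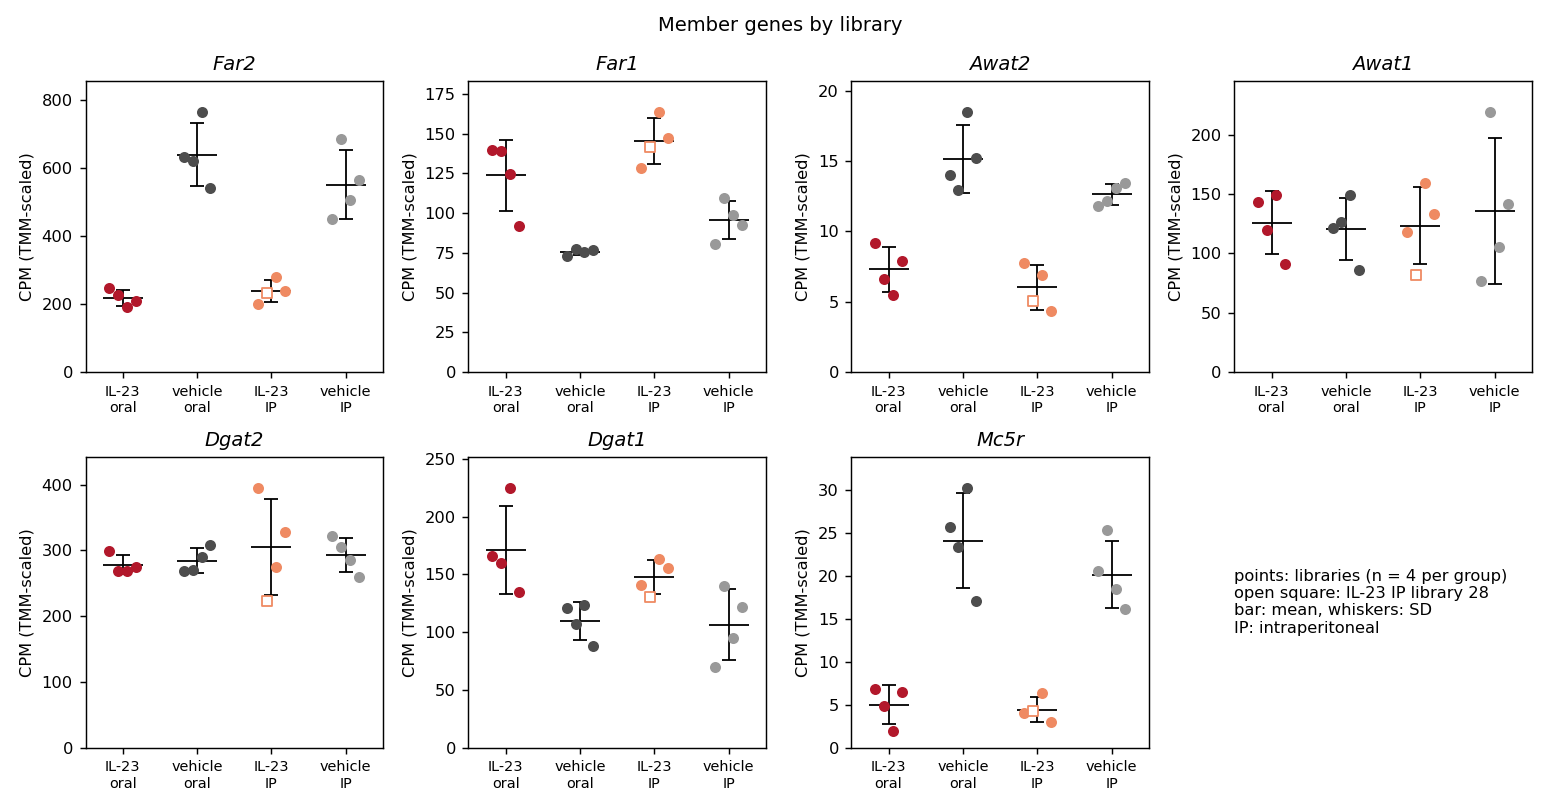
Level of each member gene in every library, in CPM after TMM scaling (linear axis from 0). Points are libraries, bars are the mean and whiskers the SD of 4 libraries; the open square is IL-23 intraperitoneal library 28. Far2, Awat2 and Mc5r do not overlap between the agents, whereas Awat1 and Dgat2 do.

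Far2 (ID 330450, chromosome 6, 148047416 to 148182758, plus strand) encodes a reductase that makes fatty alcohols for wax, and it fell in both routes. In oral mice it had 246, 225, 191 and 208 CPM in IL-23 libraries, against 632, 618, 763 and 541 CPM in vehicle libraries. The highest IL-23 library lay below the lowest vehicle library by a wide margin. In intraperitoneal mice it had 201, 233, 279 and 239 CPM in IL-23 libraries, against 448, 683, 505 and 565 CPM in vehicle libraries. These groups did not overlap either, and absence of overlap was seen for 59.7% of all genes tested in oral mice and 51.0% in intraperitoneal mice. The oral log2 fold change was -1.55 ± 0.14 (SE, adjusted p = 1.05e-07), a 2.94-fold lower level. The intraperitoneal one was -1.21 ± 0.14 (adjusted p = 1.56e-06), 2.31-fold lower. Exons of genes on the other strand, Ergic2 and Far2os2, overlap 17.5% of the exonic bases of Far2, and the strand setting of the counting is not given. Ergic2 was itself not called, with a log2 fold change of -0.01 over both routes (adjusted p = 0.924). The part of reads from Ergic2 or Far2os2 in the Far2 counts was not tested.

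Far1 (ID 67420, chromosome 7, 113513719 to 113571506, plus strand), the other fatty acyl-CoA reductase, rose in both routes. Oral dosing gave 139.9, 139, 124 and 92.2 CPM in IL-23 libraries, against 73.1, 77.2, 75.4 and 77.1 CPM in vehicle libraries. The vehicle libraries lay close together, and library 68, the lowest with IL-23, was still above them. Intraperitoneal dosing gave 129, 142, 164 and 147 CPM in IL-23 libraries, against 80.9, 109.8, 99.1 and 92.7 CPM in vehicle libraries. These groups did not overlap, although with routes joined IL-23 library 68 lay within the range of the vehicle libraries. The log2 fold change was 0.71 ± 0.12 in oral mice (SE, adjusted p = 6.83e-05), 1.64-fold higher. The intraperitoneal value was 0.61 ± 0.12 (adjusted p = 0.000307), 1.52-fold higher. The antisense gene Far1os overlaps 1.53% of the exonic bases of Far1. The longest coding frames of Far2 and Far1 were 62.5% identical over 1547 aligned bases, with no shared run longer than 14 bases.

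Awat2 (ID 245532, chromosome X, 100402221 to 100494278, minus strand) encodes an acyltransferase that forms wax esters and, in assays, also retinyl esters, and it fell in both routes. In oral mice it had 9.20, 6.64, 5.46 and 7.87 CPM in IL-23 libraries, against 14.0, 12.9, 18.5 and 15.2 CPM in vehicle libraries. In intraperitoneal mice it had 7.78, 5.08, 6.89 and 4.31 CPM in IL-23 libraries, against 11.8, 12.1, 13.1 and 13.4 CPM in vehicle libraries. No IL-23 library of either route reached the lowest vehicle library. The log2 fold change was -1.06 ± 0.18 in oral mice (SE, adjusted p = 9.80e-05) and -1.07 ± 0.19 in intraperitoneal mice (adjusted p = 0.000141), 2.09-fold and 2.10-fold lower. These levels rest on 26 to 74 counts per IL-23 library and 92 to 277 per vehicle library.

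Awat1 (ID 245533, chromosome X, 100572247 to 100578206, plus strand), the other wax alcohol acyltransferase, was not called. Oral levels were 144, 119.9, 149 and 90.7 CPM in IL-23 libraries, against 121, 127, 149 and 86.1 CPM in vehicle libraries. Intraperitoneal levels were 118, 82.1, 159.6 and 134 CPM in IL-23 libraries, against 76.6, 219, 106 and 142 CPM in vehicle libraries. The groups overlapped across most of their range, and the highest and lowest of all 16 libraries were both vehicle intraperitoneal libraries. The log2 fold change was 0.05 in oral mice (95% interval -0.51 to 0.62, adjusted p = 0.872) and -0.13 in intraperitoneal mice (-0.70 to 0.44, adjusted p = 0.691). Over both routes it was -0.04, with an interval from -0.44 to 0.36 that does not reach the -1.07 of Awat2.

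Dgat1 (ID 13350, chromosome 15, 76502012 to 76512021, minus strand), one of the pair of enzymes that complete triglycerides, rose. Oral levels were 166, 160.3, 225 and 135 CPM in IL-23 libraries, against 121, 107, 123 and 87.7 CPM in vehicle libraries. In these mice every IL-23 library lay above every vehicle library. Intraperitoneal levels were 141, 131, 163 and 156 CPM in IL-23 libraries, against 69.5, 139.6, 95.2 and 122 CPM in vehicle libraries. Here vehicle library 50 lay within the IL-23 range and the groups overlapped. The log2 fold change was 0.64 ± 0.18 in oral mice (SE, adjusted p = 0.00601), 1.56-fold higher. In intraperitoneal mice it was 0.48 ± 0.18 (adjusted p = 0.0336), 1.39-fold higher, and this call rested on the setting. It was lost with upper-quartile factors (0.38, adjusted p = 0.0768), with plain library size (0.26, adjusted p = 0.196) and with only the intraperitoneal groups in the fit (0.47, adjusted p = 0.0526). It was also lost without IL-23 library 31 (0.42, adjusted p = 0.0816) or 61 (0.45, adjusted p = 0.067), and without vehicle library 49 (0.31, adjusted p = 0.115) or 59 (0.43, adjusted p = 0.0844). The edgeR calls in oral mice and over both routes held under every alternative run.

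Dgat2 (ID 67800, chromosome 7, 99153663 to 99182713, minus strand), the other diacylglycerol acyltransferase and a sequence relative of the AWAT enzymes, was not called. Levels with oral dosing were 299, 268, 269 and 275 CPM in IL-23 libraries, against 269, 269.8, 290.1 and 308 CPM in vehicle libraries. Levels with intraperitoneal dosing were 395, 223, 275 and 328 CPM in IL-23 libraries, against 321, 305, 285 and 259.9 CPM in vehicle libraries. The vehicle range of each route lay inside or largely inside the IL-23 range, and IL-23 intraperitoneal libraries were the most spread. The log2 fold change was -0.03 in oral mice (95% interval -0.30 to 0.24, adjusted p = 0.831) and 0.06 in intraperitoneal mice (-0.21 to 0.33, adjusted p = 0.707). The interval over both routes ran from -0.18 to 0.20 around 0.01. With plain library size, which shifted the median of all genes by -0.206 in log2, the value over both routes was -0.20 (adjusted p = 0.0274) and Dgat2 was called lower, at about the shift of the median gene.

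Mc5r (ID 17203, chromosome 18, 68336744 to 68342446, plus strand), the receptor that controls sebum output in mice, showed the largest fall of the 7 genes in both routes. Oral dosing gave 6.90, 4.83, 1.90 and 6.49 CPM in IL-23 libraries, against 25.8, 23.4, 30.3 and 17.0 CPM in vehicle libraries. Intraperitoneal dosing gave 4.05, 4.27, 6.42 and 2.98 CPM in IL-23 libraries, against 20.5, 25.3, 18.5 and 16.2 CPM in vehicle libraries. All IL-23 libraries lay far below all vehicle libraries. The log2 fold change was -2.27 ± 0.29 in oral mice (SE, adjusted p = 4.42e-06), 4.83-fold lower. The intraperitoneal value was -2.15 ± 0.30 (adjusted p = 1.11e-05), 4.45-fold lower. IL-23 libraries held 15 to 61 counts of Mc5r and vehicle libraries 162 to 454.

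**Figure D2:**
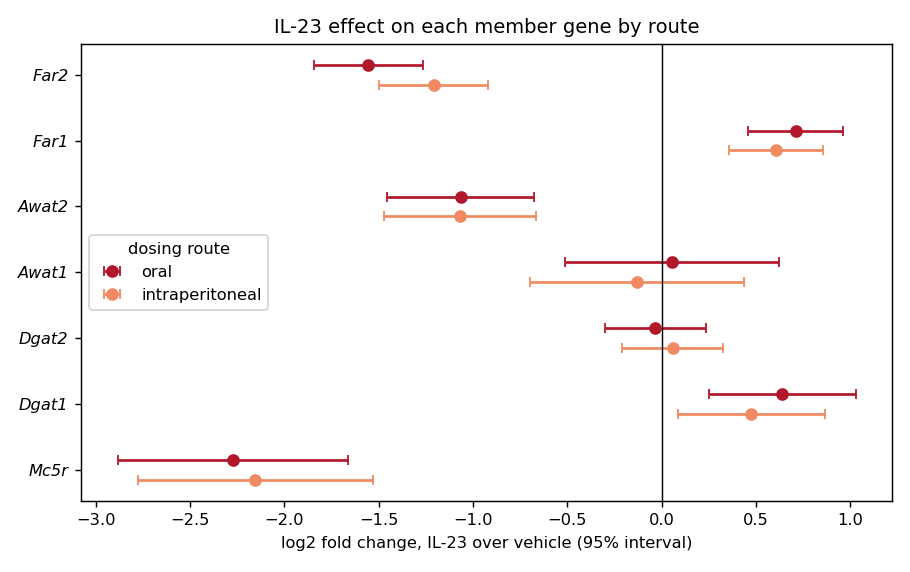
Log2 fold change of each member gene, IL-23 over vehicle, with its 95% interval from edgeR, in oral (upper marker) and intraperitoneal mice (lower marker). The 2 routes gave overlapping intervals for every gene, from -2.27 and -2.15 for Mc5r to 0.71 and 0.61 for Far1.

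No member's response to IL-23 was called different between the routes. Intraperitoneal minus oral, the effect was called different for 0 of 7 members, and 0.0% of all genes tested were called. Over all genes edgeR called 0 (796 had an unadjusted p under 0.05), limma-voom 0 and DESeq2 1. Far2 came nearest, with a difference of 0.35 in log2 (95% interval -0.06 to 0.75, adjusted p = 0.875). Its vehicle level averaged 550.2 ± 100.5 CPM in intraperitoneal and 638 ± 92.1 CPM in oral mice (SD, n = 4 each). For Mc5r the interval ran from -0.76 to 0.99, so ratios between the routes from 0.591 to 1.99 lie within it. Over both routes the log2 fold change was -2.21 ± 0.21 for Mc5r (SE, adjusted p = 5.42e-08), -1.38 ± 0.10 for Far2 (adjusted p = 2.00e-09) and -1.07 ± 0.13 for Awat2 (adjusted p = 1.52e-06). It was 0.66 ± 0.08 for Far1 (adjusted p = 1.93e-06) and 0.56 ± 0.13 for Dgat1 (adjusted p = 0.000968). With routes joined, Mc5r, Far2 and Awat2 were the 3 members whose 8 IL-23 libraries did not overlap the 8 vehicle libraries, and 19.2% of all genes tested were lower without overlap.

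Levels of different genes were compared per kilobase of exon. With IL-23 the order was Dgat2 (129 CPM per kb, n = 8), Awat1 (89.7), Dgat1 (84.5), Far2 (43.4), Far1 (25.8), Awat2 (3.13) and Mc5r (1.21). With vehicle it was Dgat2 (128), Far2 (113), Awat1 (92.3), Dgat1 (57.3), Far1 (16.4), Awat2 (6.53) and Mc5r (5.67). Far2 was thus the fourth most abundant member with IL-23, against the second with vehicle. In IL-23 libraries the ranges of Dgat2 (98.6 to 175 CPM per kb), Awat1 (59.1 to 115) and Dgat1 (69.2 to 119) overlapped in turn. Far2 (36.4 to 53.2) overlapped neither Dgat1 nor Far1 (17.7 to 31.3) there, and Awat2 (2.03 to 4.33) did not overlap Mc5r (0.488 to 1.77). In vehicle libraries Dgat2 (115 to 142), Far2 (85.4 to 145) and Awat1 (55.1 to 158) had overlapping ranges. Dgat1 (36.8 to 73.9) overlapped Awat1, and Awat2 (5.57 to 8.69) overlapped Mc5r (4.15 to 7.75), whereas Far1 (14.0 to 21.0) overlapped neither Dgat1 nor Awat2. Awat2, the wax alcohol acyltransferase that fell, was the less abundant of its pair with both agents. Far2, the reductase that fell, was the more abundant of its pair.

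**Figure D3:**
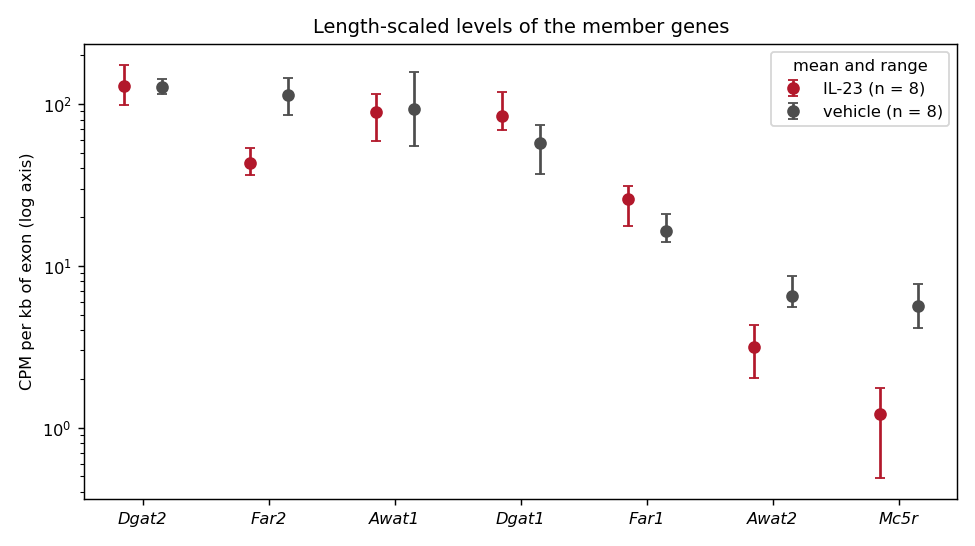
Length-scaled level of the member genes in CPM per kb of exon (log axis). Points are means and whiskers the full range of 8 libraries, IL-23 left of vehicle for each gene. Far2 stands at 43.4 with IL-23, against 113 with vehicle, while Dgat2 stands at 129 with IL-23 and 128 with vehicle.

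Within each library the balance of the paired enzymes was read from the ratio of their counts, which does not depend on scaling and is given without a test. The Far2 to Far1 ratio was 1.54 to 2.25 in IL-23 oral libraries, against 7.02 to 10.1 in vehicle oral libraries. It was 1.56 to 1.71 in IL-23 intraperitoneal libraries, against 5.09 to 6.22 in vehicle intraperitoneal libraries. No library of one agent entered the range of the other. The Awat2 to Awat1 ratio was 0.0366 to 0.0868 in IL-23 oral libraries, against 0.102 to 0.177 in vehicle oral libraries. In intraperitoneal mice it was 0.0323 to 0.0658 with IL-23, against 0.0554 to 0.154 with vehicle, and the groups overlapped there. The Dgat2 to Dgat1 ratio was 1.20 to 2.04 with IL-23 and 2.23 to 3.51 with vehicle in oral mice, and 1.69 to 2.81 with IL-23 and 2.13 to 4.62 with vehicle in intraperitoneal mice. For the triglyceride enzymes the groups thus overlapped in intraperitoneal and not in oral mice.

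**Figure D4:**
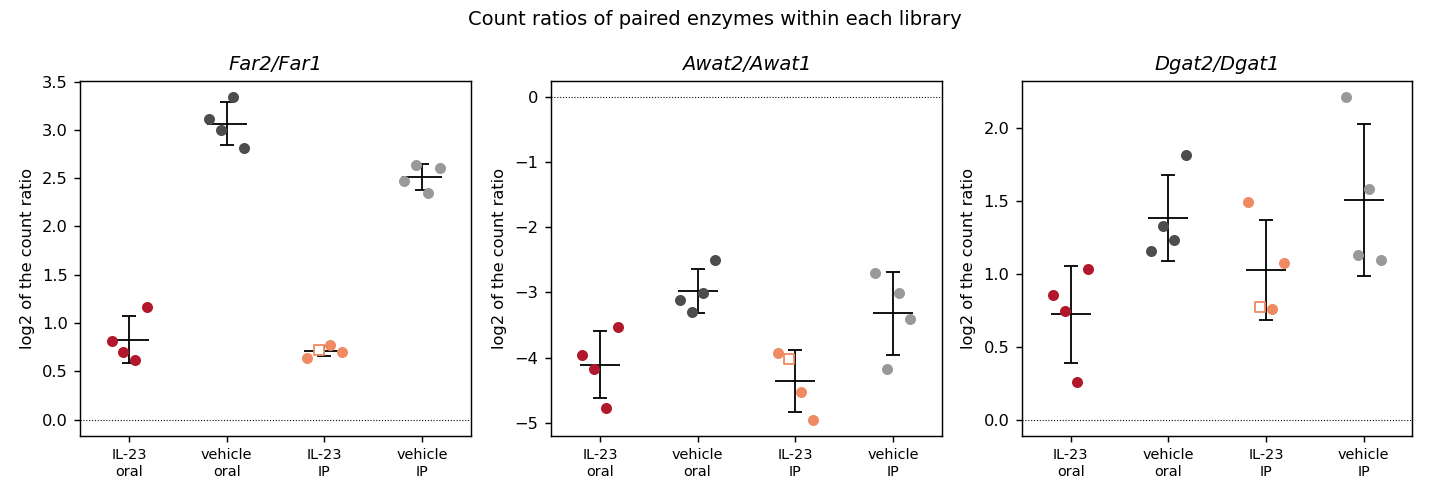
Log2 of the count ratio of paired enzymes within each library; points are libraries, bars the mean and whiskers the SD of 4, and the open square is library 28. The Far2 to Far1 ratio averages 0.83 (log2) with IL-23, against 3.07 with vehicle, in oral mice, and the groups do not overlap in either route.

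Members also varied among libraries of 1 group. After each gene's log2 CPM was centred on its group means, Awat1 and Dgat1 had a Pearson r of 0.905 over 16 libraries, although Awat1 was not called and Dgat1 rose. Awat1 and Far2 had an r of 0.744, Awat1 and Far1 0.625, and Awat2 and Mc5r 0.629. Awat1 and Awat2 had an r of 0.0928. Genes of the same library share its depth and tissue composition, which varied among libraries, so these values are descriptions. Among 11910 other genes that averaged 5 CPM or more, those most like Awat1 were the retinol dehydrogenase gene Rdh1 (0.963) and Hacl1 (0.962), a lyase of fatty acid alpha-oxidation. Most like Far2 were Hsd17b12 (0.919), an enzyme of fatty acid elongation, and the dehydrogenase gene Sdr16c6 (0.885). Most like Dgat1 were Hilpda (0.933), which encodes a lipid droplet protein, and the mitochondrial carrier gene Slc25a33 (0.917). Dgat2 was most like the cornified envelope genes Lce1l (0.941) and Lce1c (0.930), members of a family of similar sequences that may share reads. Without library 28 these were 0.877 and 0.853. Leaving out that library reversed the order for Far2, with 0.932 for Hsd17b12 and 0.977 for Sdr16c6. Awat2 was most like Wscd2 (0.856) and Eps15l1 (0.853), Far1 most like Gpatch3 (0.811) and Gm15987 (0.803), and Mc5r most like Taf6 (0.878), a subunit of a general transcription factor, and Tsc2 (0.859), a brake on mTOR signalling. Without library 28 the order was reversed for Mc5r too, with 0.88 for Taf6 and 0.915 for Tsc2. For Awat2, Wscd2 and Eps15l1 then ranked 3 and 4. Each gene named was picked from the top of 11910 correlations over 16 libraries, and such a search favours high values by itself. None of the genes named as most like a called member was called in the opposite direction to that member, though some were not called. Over both routes Hsd17b12 (log2 fold change -0.62, adjusted p = 8.05e-07) and Sdr16c6 (-0.97, adjusted p = 9.03e-07) fell, as did Wscd2 (-1.62, adjusted p = 1.23e-07) and Tsc2 (-0.35, adjusted p = 1.13e-05). Rdh1 (-0.35, adjusted p = 0.0166) and Lce1l (-0.39, adjusted p = 0.0293) fell too, although Awat1 and Dgat2 were not called. Hilpda (0.69, adjusted p = 0.00827), Gpatch3 (0.68, adjusted p = 3.43e-05) and Gm15987 (1.51, adjusted p = 1.42e-07) rose. Hacl1, Eps15l1, Slc25a33, Lce1c and Taf6 were not called.

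Around the members, the genes that supply acyl chains mostly fell, while those that build the glycerol backbone were split. Values here and through the paragraph on ether lipids, melanocortin genes and lipogenic regulators are over both routes unless a route is named. Over both routes 73.6% of all genes tested were called (34.9% higher and 38.7% lower), and the median log2 fold change of all genes was -0.04. Of 21 acyl chain supply genes tested, 14 fell, 4 rose and 3 were not called, with a median of -0.71. Scd1, the desaturase that introduces the first double bond, averaged 7079 ± 1092 CPM in IL-23 and 18510.0 ± 2365 CPM in vehicle libraries (SD, n = 8 each). Its log2 fold change was -1.39 (adjusted p = 5.47e-09). The elongase gene Elovl6 had a log2 fold change of -1.74 (adjusted p = 3.58e-09), the long-chain acyl-CoA synthetase gene Acsl6 -1.87 (adjusted p = 4.58e-08) and the desaturase gene Fads2 -1.38 (adjusted p = 4.74e-05). The 4 that rose, named after their values were seen, were Elovl1, Elovl7, Acsl1 and Scd3. In oral mice 3 rose and 14 fell, and in intraperitoneal mice 2 rose and 14 fell. Scd3 was called in neither route by itself (adjusted p = 0.0879 in oral and 0.0534 in intraperitoneal mice). Acsl1 was not called in intraperitoneal mice (adjusted p = 0.130). Of 14 glycerolipid genes that act before diacylglycerol acyltransferase, 6 rose, 7 fell and 1 was not called, with a median of -0.01, and 3 rose with plain library size. Gpam, the mitochondrial acyltransferase of the first step, averaged 100.1 ± 12.8 CPM in IL-23 and 267 ± 29.9 CPM in vehicle libraries (log2 fold change -1.41, adjusted p = 3.51e-10). Gpd1, which makes glycerol 3-phosphate, had -1.63 (adjusted p = 3.03e-08). The phosphatidate phosphatase genes Lpin1 and Lpin2 moved apart, at -1.07 (adjusted p = 4.25e-07) and 1.01 (adjusted p = 2.13e-08).

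Of 4 tested sequence or functional relatives of the acyltransferases, 2 rose and 2 fell. Dgat2l6 averaged 11.7 ± 4.50 CPM in IL-23 and 6.69 ± 3.09 CPM in vehicle libraries (log2 fold change 0.84, adjusted p = 0.00747). Its change was called in oral mice (1.18, adjusted p = 0.0107) and not in intraperitoneal mice (0.51, adjusted p = 0.231). Tmem68, whose human protein can make triglyceride without the DGAT enzymes, rose by 0.60 in log2 (adjusted p = 4.38e-07). The monoacylglycerol acyltransferase gene Mogat1 averaged 1.64 ± 0.786 CPM in IL-23 and 4.84 ± 0.797 CPM in vehicle libraries (-1.56, adjusted p = 2.03e-05), and the cholesterol acyltransferase gene Soat1 had -0.66 (adjusted p = 2.08e-05). Of 15 lipid droplet and lipolysis genes tested, 13 fell, 1 rose and 1 was not called, with a median of -0.87. Each route by itself had 10 called lower and 1 called higher. The count lower over both routes was 11 without IL-23 library 28, and 11 without vehicle library 50. Plin1, the droplet coat gene of fat cells, averaged 8.10 ± 3.25 CPM in IL-23 and 39.0 ± 8.43 CPM in vehicle libraries, a log2 fold change of -2.24 (adjusted p = 5.03e-08). Cidec, which fuses droplets, had -1.96 (adjusted p = 5.02e-08), Plin5 -1.09 (adjusted p = 0.000167) and Fitm2, which aids droplet budding, -1.02 (adjusted p = 4.89e-10). The gene that rose was Abhd5, an activator of triglyceride lipase, with 279.5 ± 37.8 CPM in IL-23 and 173 ± 10.2 CPM in vehicle libraries; it is named after its value was seen.

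Of 8 other genes tied to ether lipid synthesis, 2 rose, 3 fell and 3 were not called, with a median of -0.10. In oral mice 1 rose and 2 fell, and in intraperitoneal mice 2 rose and 3 fell. With plain library size 1 rose and 5 fell over both routes. Cept1, which attaches the head group, had a log2 fold change of 0.56 (adjusted p = 1.71e-08), and Gnpat, the first enzyme of the route, -0.43 (adjusted p = 8.50e-08). Dhrs7b had -0.22 (adjusted p = 0.00967) and Tmem189, the plasmalogen desaturase gene, -0.34 (adjusted p = 0.00188). Of 5 melanocortin genes tested besides Mc5r, 3 fell, 0 rose and 2 were not called, with a median of -1.48. The other receptors were scarce. Mc1r, the pigment cell receptor, had 6 counts in all IL-23 and 105 in all vehicle libraries (log2 fold change -3.63, adjusted p = 5.44e-07), and Mc2r, the corticotropin receptor, 23 counts in IL-23 and 168 in vehicle libraries (-2.33, adjusted p = 9.62e-05). The receptor accessory gene Mrap had -1.48 (adjusted p = 6.22e-05). Of 13 lipogenic regulators, 9 fell, 2 rose and 2 were not called, with a median of -0.52. In oral mice 7 of them fell, and in intraperitoneal mice 8 fell. The transcription factor genes Ppara and Mlxipl had -1.33 (adjusted p = 2.52e-10) and -1.42 (adjusted p = 9.37e-06). Ppard, a relative of Ppara, was opposite, with 97.0 ± 15.3 CPM in IL-23 and 41.1 ± 4.65 CPM in vehicle libraries (1.24, adjusted p = 3.95e-09).

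**Figure D5:**
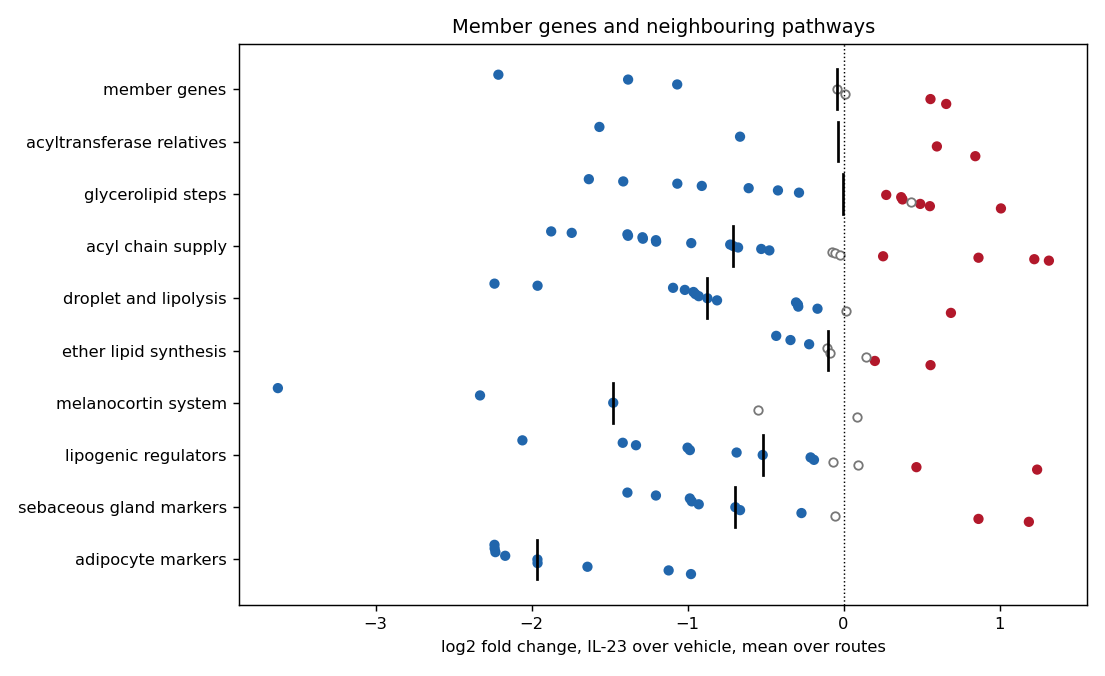
Log2 fold change, IL-23 over vehicle, as the mean over routes, for each tested gene (point) of the members and of 9 gene lists; filled points left of 0 fell, filled points right of 0 rose, open points were not called, and the vertical bar is the list's median. The members' median is -0.04, against -0.71 for acyl chain supply and -0.87 for droplet and lipolysis genes.

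Markers of cell types moved with the agents as well, and the counts here are over both routes unless a route is named. The shares of all genes tested over both routes were 34.9% called higher and 38.7% called lower. Of 11 sebaceous gland markers, a list that shares Scd1, Scd3, Elovl3, Acsbg1, Pparg, Cidea and Soat1 with the lists above, 8 fell, 2 rose and 1 was not called, with a median of -0.69. Their summed level was 7970.0 to 12060.0 CPM in IL-23 and 18670.0 to 27440.0 CPM in vehicle libraries, and no marker was at 0 in any group. Most of this sum was Scd1, which averaged 7079 CPM in IL-23 and 18510.0 CPM in vehicle libraries. The mean log2 CPM over the 11 markers was 6.57 to 7.23 in IL-23 and 7.19 to 7.61 in vehicle libraries, so these ranges overlapped. In oral mice 7 of these markers fell, 1 rose and 3 were not called. In intraperitoneal mice 7 fell, 0 rose and 4 were not called. Over both routes 7 fell without IL-23 library 28, and 7 without vehicle library 50. The sebaceous gland marker that was not called over both routes was Elovl3, an elongase of sebaceous and hair follicle cells, named after its value was seen. It averaged 623.5 ± 111 CPM in IL-23 and 648 ± 170.2 CPM in vehicle libraries (adjusted p = 0.744). All 9 adipocyte markers fell, with a median of -1.96. This list shares Plin1 and Cidec with the lipid droplet and lipolysis list. Its summed level was 256 to 391 CPM in IL-23 and 574 to 870.0 CPM in vehicle libraries. All 10 skeletal muscle and all 5 melanocyte markers fell. Of 7 epidermal keratinocyte markers 3 rose and 4 fell, and of 8 hair follicle markers 2 rose and 4 fell. Of 7 leukocyte markers tested 4 rose, with 3 called higher in oral and 4 in intraperitoneal mice. Of 6 fibroblast markers 3 fell, with 3 called lower in oral mice (median -0.85) and 0 called in intraperitoneal mice (median 0.10). Of 4 endothelial markers 3 fell, with 3 called lower in oral mice (median -0.88) and 0 called in intraperitoneal mice (median -0.36). In intraperitoneal mice edgeR gave an unadjusted p under 0.05 for 0 of the fibroblast and 1 of the endothelial markers. Without library 28, 5 fibroblast markers fell over both routes. Library 28 stood apart in leukocyte markers, with a summed level of 1110.0 CPM, against at most 272 CPM in IL-23 oral and 303 CPM in vehicle libraries. Its fibroblast markers summed to 5105 CPM, against at most 1437 CPM in IL-23 oral and 3450.0 CPM in vehicle libraries. Without it the intraperitoneal log2 fold changes were -2.10 for Mc5r, -1.18 for Far2, -0.97 for Awat2, 0.64 for Far1 and 0.55 for Dgat1, all still called, and 0.04 for Awat1 and 0.20 for Dgat2, not called. The part of these cell types in the members' changes was not tested.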

How the data were processed

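RNA of 16 mouse libraries was sequenced after TruSeq Stranded Total RNA preparation on an Illumina sequencer, per the labels' protocols. The authors deposited raw read counts per gene, whole numbers with no scaling. The submitters' processing notes name FastQC, STAR, featureCounts of Subread 1.5.0 and build GRCm38. Not given in the sources used here are the gene annotation, whether counting used strand, and how multiply mapped reads were handled. Groups came from the agent and route labels.

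Tests of the counts used edgeR 4.0.16 under R 4.3.3 (TMM factors, filterByExpr with a minimum count of 10, quasi-likelihood fit of 4 group means, 12 residual degrees of freedom, 2-sided). SEs were derived from the fold change and the F statistic. The fit was tested on simulated data. Log2 CPM used a prior count of 2. Alternatives were RLE, upper-quartile or no scaling factors, other count filters, DESeq2 1.42.0, limma-voom (limma 3.58.1), fits of the compared groups only and leaving out each library. Positions are from RefSeq GRCm38.p6. Exon lengths and coding frames came from the GENCODE annotation of GRCm38, with coding frames taken as the longest open frame. The agouti gene was matched by ID, since the table lists it as a.

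Named genes are the 7 members, up to 4 called genes of each list with the largest change over both routes, and the 2 genes most correlated with each member. 1 gene that this rule names is not reported here. Members, lists and tests were chosen with earlier results of these data known.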

Additional observations from a re-analysis of the deposited data

How the results depend on the processing

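Mc5r, Far2 and Awat2 stayed lower and Far1 higher, each past the threshold, in both routes under every alternative run, and so did Dgat1 in oral mice and over both routes. The intraperitoneal call of Dgat1 is treated with its values above. The count of genes called stayed within 1.5 times in the oral (8457 to 9768 when 1 library was left out), intraperitoneal (8310 to 9092) and joint comparisons (10567 to 11028). For the difference between routes it was 0 without any 1 library, and DESeq2 gave 1. Changes of sign fell on values near 0 that were not called, apart from Dgat2 with plain library size over both routes. For Awat1 in oral mice the log2 value was -0.018 with upper-quartile factors, -0.14 with plain library size and -0.053 to 0.19 when 1 library was left out. For Dgat2 in oral mice it was 0.0086 with RLE factors, 0.0087 with DESeq2 and -0.068 to 0.031 without 1 library. In intraperitoneal mice, Dgat2 had -0.045 with upper-quartile factors, -0.17 with plain library size and -0.087 to 0.20 without 1 library, and Awat1 -0.33 to 0.20. Over both routes, Dgat2 had -0.076 with upper-quartile factors, -0.20 with plain library size and -0.059 to 0.10 without 1 library, and Awat1 -0.14 to 0.13. The difference between routes ran from -0.38 to 0.14 for Awat1, -0.14 to 0.12 for Awat2 (0.013 with limma-voom), -0.056 to 0.20 for Dgat2 and -0.16 to 0.28 for Mc5r without 1 library. The cause of these changes was not tested. Plain library size made 31.9% of calls over both routes higher (3515 higher, 7516 lower), against 47.4% with TMM (5117 higher, 5675 lower). List counts without library 28, without vehicle library 50 and with plain library size were added after seeing the data. Fibroblast markers lower were 5 without library 28 and 3 with it, leukocyte markers lower were 1 without library 28 and 0 with it, and keratinocyte markers higher were 1 with plain library size and 3 with TMM. No paired analysis was possible because no library number is shared between groups.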
